A study of Mus musculus with 4 samples.

Results

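Cholesterol withdrawal was followed in the livers of mice on the FPC diet, a feed rich in Fructose, Palmitate, Cholesterol and Trans-Fat that is used to model steatohepatitis. The I-HC32 library, from mice that ate 1.25% cholesterol for 24 weeks and then 0.05% for 8 weeks, was compared with the P-HC24 library, taken at week 24 while the diet still held 1.25%. A cell barcode was kept when it had at least 500 unique molecular identifiers (UMIs, one per captured RNA molecule) and 300 genes, with at most 10% of its UMIs on mitochondrially encoded genes. By that rule 7351 cells of I-HC32 and 6914 of P-HC24 entered, which is 14265 of the 26825 kept cells in the 4 libraries of the series. The other 12560 cells came from mice that ate 0.05% cholesterol throughout, sampled at week 24 (P-LC24, 5142 cells) and week 32 (I-LC32, 7418 cells), and the ratio of I-LC32 to P-LC24 is called the drift.

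All mice were male C57BL/6J animals that started the FPC diet at 7 weeks of age, 5 per cholesterol level. Fine-needle aspirates of the 4 largest liver lobes of 3 mice, 12 in all, were pooled into a single library, and the same 3 mice of each diet were sampled at both times. The pooled tissue was digested with collagenase, freed of red cells and dead cells, and sequenced as 10x 3′ libraries. With 1 library per condition no statistical test was possible, so ratios carry 95% exact Poisson intervals and shares 95% exact binomial intervals, which cover counting error only. The change of diet cannot be told apart from the 8 weeks of age, a previous aspiration or the handling of the library. The low-cholesterol mice passed through the same weeks and the same procedure, but they were other animals.

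Cells adjust to cholesterol through opposing transcription programmes. When cholesterol is plentiful, oxysterols activate the LXR receptors, which switch on efflux genes such as Abca1 and Apoe. When it is scarce, SREBP-2 is released to the nucleus and turns on the genes of sterol synthesis and uptake. Liver macrophages and monocytes that take up lipid can acquire a lipid-associated programme marked by Trem2, Gpnmb and Spp1. Cytosolic chaperones of the HSP70, HSP90 and HSP110 families fold nascent and damaged proteins and are under the heat shock factor HSF1, while chaperones of the endoplasmic reticulum belong to the unfolded protein response.

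Promoter sequences of 2 gene groups are shown, because the results turn on these groups. They are taken from RefSeq on GRCm38.p6, another build than that of the counts. Hspd1 and Hspe1 encode the mitochondrial chaperonin and its partner, and share the region chr1:55088029-55088106 between their starts, printed on the strand of Hspe1. Capitals mark 2 overlapping matches, on either strand, to a heat shock element (GAA, TTC and GAA, each 2 bases apart), 89 to 72 bases before the start of Hspe1. The interferon-stimulated genes Isg15 (chr4:156200845-156200926, minus strand) and Oas3 (chr5:120777695-120777764, minus strand) follow, with matches to an interferon-stimulated element (GAAA and GAAA, 2 bases apart) in capitals.
Hspe1: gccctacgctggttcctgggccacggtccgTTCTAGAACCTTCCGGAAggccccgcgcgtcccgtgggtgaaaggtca
Isg15: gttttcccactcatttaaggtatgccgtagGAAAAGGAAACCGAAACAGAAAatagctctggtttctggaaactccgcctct
Oas3: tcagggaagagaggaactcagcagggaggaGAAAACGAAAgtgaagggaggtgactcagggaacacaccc

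In windows from 250 bases before to 50 after a gene's start, searched on both strands, the heat shock element was present at 198 of 32851 mouse promoters (0.603%). Of the 21 heat shock genes, 17 had a window and 4 held the element (Hspd1, Hspe1, Hsph1 and Chordc1). The interferon-stimulated element was present at 1131 promoters (3.44%) and at 17 of the 31 interferon-stimulated genes with a window. A match is a stretch of letters and was not tested for binding.

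The kept cells held 69311744 UMIs in P-HC24 and 86280132 in I-HC32, with medians of 7548.5 and 8928 UMIs per cell, against 6403 in P-LC24 and 7209.5 in I-LC32. I-HC32 stood apart before filtering, since 849 of its barcodes (10.4% of those with enough UMIs and genes) exceeded the mitochondrial limit, while the other libraries lost 2.91% to 5.07%. Cells that carried core markers of 2 lineages were 7.99% of I-HC32 and 5.11% of P-HC24. The pair shared 22 cell barcodes, within the 13 to 36 shared by any pair of libraries. RNA of red cells also differed. Erythroid markers over the kept cells summed to 9511 CPM (counts per 1000000 UMIs) in P-HC24 and 3179 in I-HC32, against 17969 in P-LC24 and 16279 in I-LC32. The sums include an erythroid-like class of 92 cells in P-HC24, 61 in I-HC32, 127 in P-LC24 and 248 in I-LC32. They do not measure free RNA alone.

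The liver label was checked against marker genes. Hepatocyte markers summed to 9.3 CPM in P-HC24 and 10.5 in I-HC32, and the sinusoidal endothelial gene Stab2 had 18 and 21 UMIs. Clec4f, which defines Kupffer cells, the resident liver macrophages, had 0 UMIs in P-HC24 and 42 in I-HC32, of which 41 lay in a single monocyte-like cell. It had 0 UMIs in the macrophage-like class of all 4 libraries. Other Kupffer cell markers were present, 6 of the 9 on the list being detected in that class, beside 12 of 12 markers of large peritoneal macrophages. That class was led by Slpi, Prg4, Pf4, Alox15, Ltbp1 and Saa3, and it expressed Gata6 at 76.6 CPM in P-HC24 and 101.7 in I-HC32, a factor known from large peritoneal macrophages, so the cells are called macrophage-like without a tissue name.

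B-1-like and macrophage-like cells took larger shares of the immune cells after withdrawal, while naive B-like cells, monocytes, NK cells and neutrophils took smaller ones. Shares are of the cells in the named immune classes, 6447 cells in P-HC24 and 6951 in I-HC32. B-1-like cells, innate-like B cells that make natural antibody, were 28.1% of P-HC24 and 36.5% of I-HC32, a difference of 8.36 percentage points (95% interval 6.78 to 9.95). They also differed between the low libraries, 16.3% in P-LC24 and 29.2% in I-LC32, by 12.8 points. Naive B-like cells stood at 42.7% in P-HC24 and 33.9% in I-HC32, a difference of -8.85 points (-10.5 to -7.20), against 52.4% and 41.6% in the low libraries (-10.9 points). T cells were 14.3% and 16.0% (1.73 points, 0.504 to 2.95), against 17.6% and 20.3%. The B and T cell differences were thus of the same sign as the drift and, in points, smaller than it for both B classes. As ratios of shares, naive B-like cells had 0.793 on withdrawal and in the drift, and B-1-like cells 1.30 and 1.79. The T cell share leaves out cluster 7, of the T lineage, described below. That cluster was 3.83% of the kept cells of P-HC24 and 1.97% of I-HC32, against 4.55% and 4.88% in the low libraries.

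**Figure D1:**
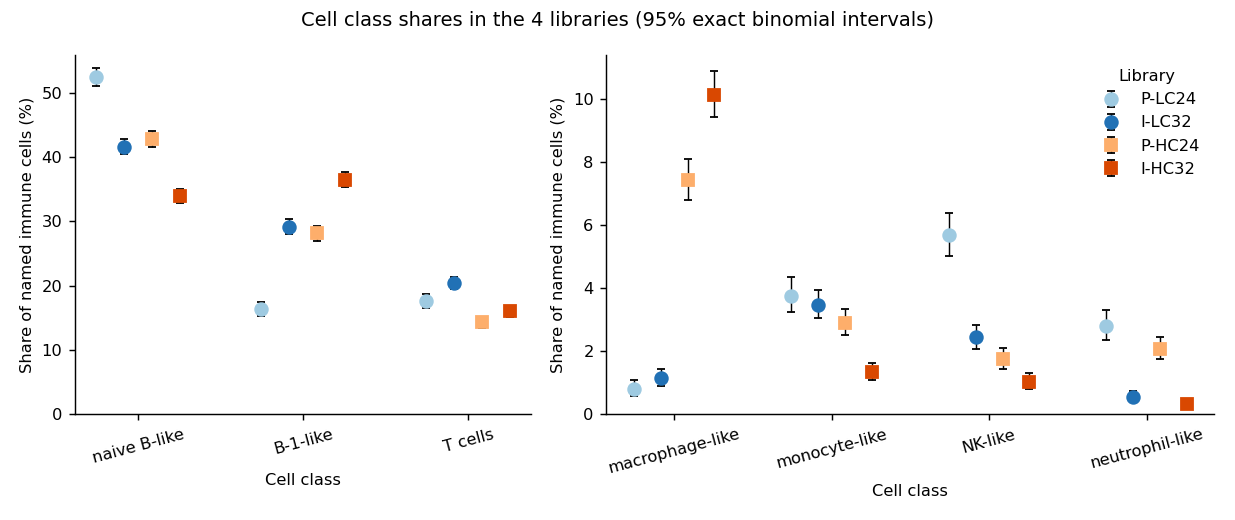
Share of each immune class (y axis, percent of cells in the named immune classes) in the 4 libraries, with 95% exact binomial intervals that cover counting error only. Macrophage-like cells stood at 0.795% and 1.14% in the low libraries and at 7.43% and 10.1% in P-HC24 and I-HC32, while both B classes moved the same way on the 2 diets.

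Macrophage-like cells were 7.43% of P-HC24 (479 cells) and 10.1% of I-HC32 (705 cells), a difference of 2.71 points (1.75 to 3.68). They were 0.795% of P-LC24 (37 cells) and 1.14% of I-LC32 (76 cells). As ratios, the withdrawal and the drift were close, 1.37 and 1.43. Monocyte-like cells stood at 2.90% (187 cells) and 1.32% (92 cells), a difference of -1.58 points (-2.09 to -1.08), while the low libraries stood at 3.76% and 3.47%. The ratio of monocyte shares was 0.456 on withdrawal and 0.922 in the drift. NK-like cells were 1.75% and 1.04% (ratio 0.591, drift 0.429) and neutrophil-like cells 2.08% and 0.317% (ratio 0.152, drift 0.193), so both classes were scarcer at week 32 on either diet. With a mitochondrial limit of 5% the macrophage-like difference was -0.54 points and the T cell difference -0.14 points, and with a cell's class taken from marker UMIs the T cell difference was -1.21 points.

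Inside the T lineage the composition shifted. Of the 1184 and 1256 T-lineage cells of P-HC24 and I-HC32, 54.7% and 46.9% lay in a cluster led by Dapl1, Lef1 and Igfbp4, genes of naive cells, and 21.5% and 35.8% in a cluster led by Gzmk, Tox, Ccl5 and Pdcd1, genes of antigen-experienced cells. The low libraries moved likewise, from 52.0% to 40.0% and from 24.4% to 36.5%. A cluster led by Ly6c2, Klrc1 and Il2rb (cluster 7, left without a type name) was 22.4% of P-HC24 and 11.5% of I-HC32, but 22.2% and 21.0% in the low libraries. A small cluster led by Tnfsf11, Il1rl1 and Il23r held 1.44% (17 cells) and 5.73% (72 cells), against 1.33% and 2.50%. Cd8a and Cd8b1, the chains of the CD8 co-receptor, made up 94.97% of the CD8 plus Cd4 UMIs in P-HC24 and 78.7% (77.2 to 80.2) in I-HC32, against 93.9% and 92.0% in P-LC24 and I-LC32.

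Across the kept cells of each library, a gene was compared when it had at least 100 UMIs over both high-cholesterol libraries and was present in at least 10% of the cells of at least one of them. Within a class a gene also needed 20% of its CPM in the class where it was highest, which limits free RNA of other cells. A gene was called higher or lower when the ratio of CPM was at least 1.2-fold, a rule of size and not a test. Of 7888 genes, 2922 (37.0%) were higher in I-HC32 and 357 (4.53%) were lower. The drift called 1528 genes higher (19.4%) and 1405 lower (17.8%). Genes that also differed from the drift by at least 1.2-fold in the same direction numbered 2016 higher (25.6%) and 183 lower (2.32%). These shares are the background against which each gene group is read.

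The excess of higher genes depended on the scale. The median log2 ratio over the 7888 genes was 0.19 on withdrawal and -0.01 in the drift. Relative to the median gene, 994 genes were higher and 1015 lower, so that higher calls made up 89.1% of calls on the CPM scale and 49.5% on the centred one. The centred calls were 12.6% of genes higher and 12.9% lower. They were 14.4% and 15.5% in B-1-like and 13.9% and 16.1% in naive B-like cells. T cells had 19.4% and 20.4% and macrophage-like cells 18.1% and 14.8%. Centred list counts are read against these shares, which were not computed in the other classes. CPM is a relative scale, on which the abundant ribosomal protein transcripts took a smaller part of I-HC32. Ratios in the text are on the CPM scale unless the median gene is named.

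The ratio also followed gene length. In the bin of genes with the shortest exonic length (148 to 4347 bases, 4 equal bins) the median log2 ratio was 0.07 and 19.8% of the genes were higher, and in the bin of the longest (9959 to 123193 bases) it was 0.28 and 54.8% were higher. The drift ran the other way, with medians of 0.12 in the shortest and -0.10 in the longest bin. The same order of medians held in B-1-like, naive B-like, T and macrophage-like cells. Its part in the gene groups was not tested.

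For genes called beyond the drift, the 4 libraries show which of them stood apart. Of the 2016 higher genes, 1345 were at least 1.2-fold lower in P-HC24 than in each of the 3 other libraries, and 255 were at least 1.2-fold higher in I-HC32 than in each of the others, 18 genes being in both counts. On the CPM scale a higher ratio therefore more often went with a low value at week 24 on high cholesterol than with a high value after withdrawal. The order of the libraries was not recomputed relative to the median gene, where 501 genes were higher beyond the drift. Across genes the withdrawal ratio and the drift had a Spearman coefficient of 0.16, a description over genes of 4 libraries that share these cells' depth and composition.

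**Figure D2:**
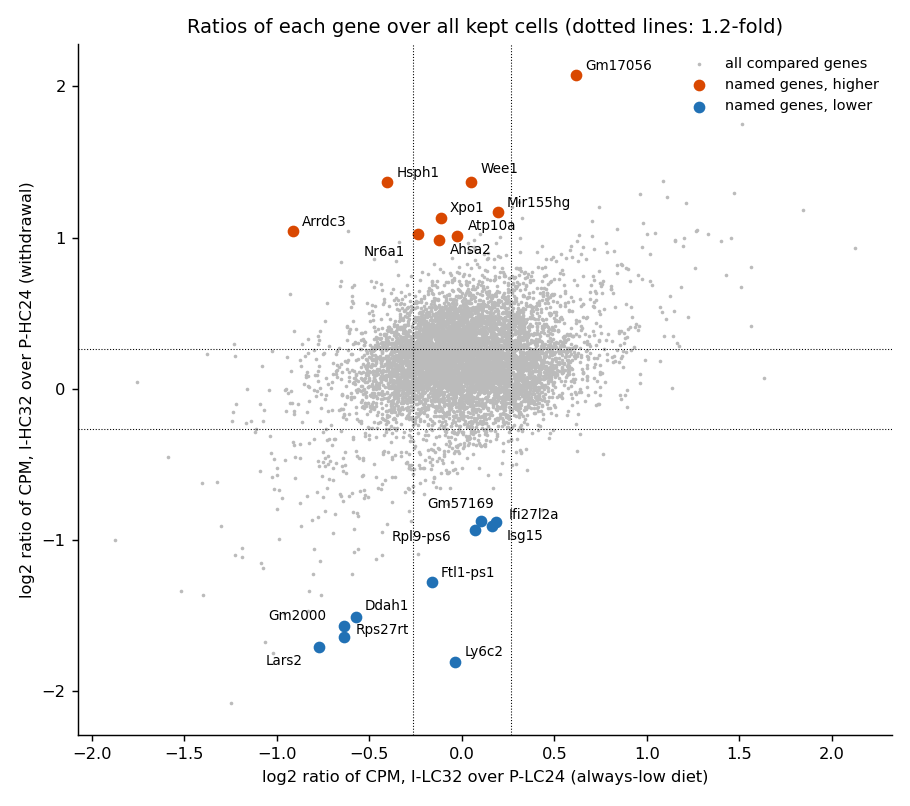
Each point is a compared gene over the kept cells, with the drift (log2 of I-LC32 over P-LC24) on the x axis and the withdrawal ratio (log2 of I-HC32 over P-HC24) on the y axis, most of the named genes in colour and dotted lines at 1.2-fold. Hsph1 stands at 1.37 on the y axis and -0.40 on the x axis and Ly6c2 at -1.80 and -0.04, and the cloud is centred above 0 on the y axis.

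**Figure D3:**
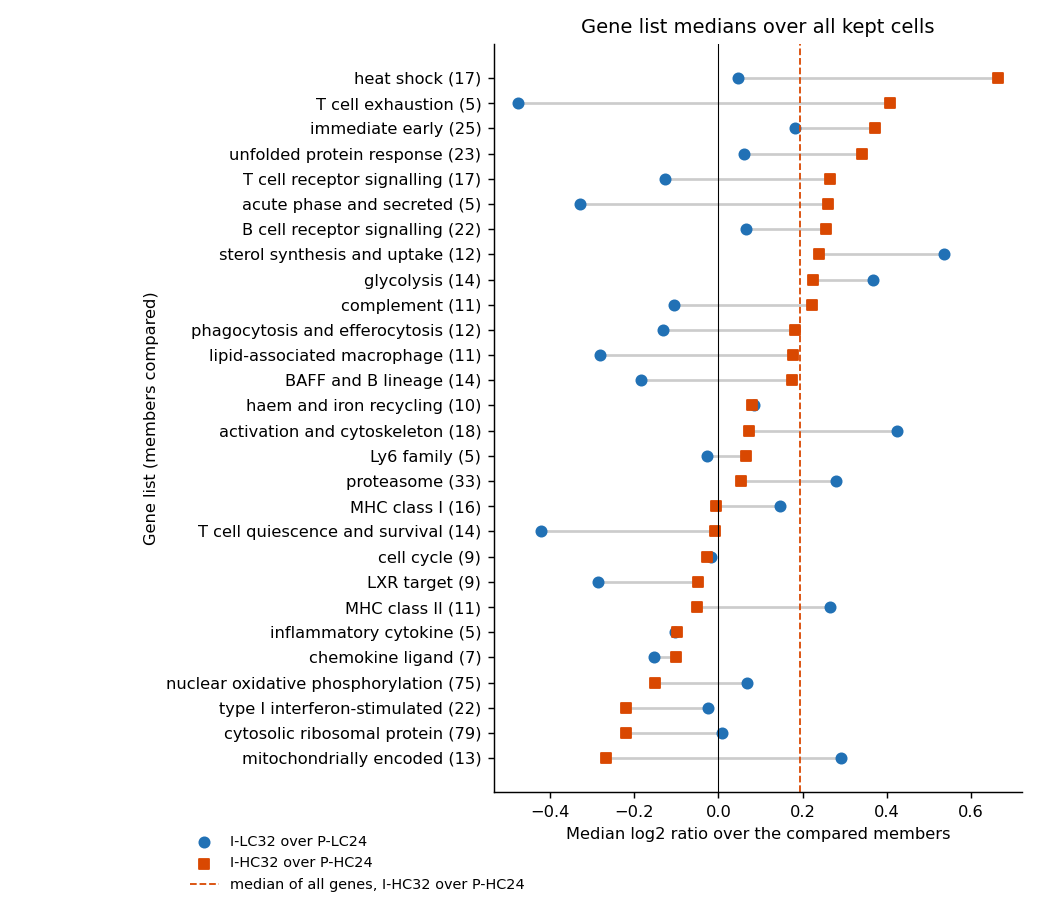
Median log2 ratio (x axis) of the compared members of each gene list with at least 5 of them over the kept cells, as squares for withdrawal and circles for the drift, with a dashed line at the withdrawal median over all 7888 genes. Heat shock genes have the highest withdrawal median, 0.67 against a drift of 0.05, and genes encoded by mitochondria stand at -0.27 against 0.29.

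Over the kept cells and on the CPM scale, no compared LXR target or gene of sterol synthesis and uptake was called beyond the drift. None of the 9 compared LXR targets was called in either direction, with a median log2 ratio of -0.05 against -0.28 in the drift. Relative to the median gene 4 of the 9 were lower. Abca1, the efflux pump that loads cholesterol on apolipoproteins, stood at 118 CPM in P-LC24, 86.6 in I-LC32, 114 in P-HC24 and 97.6 in I-HC32. Its log2 ratio was -0.22 (-0.27 to -0.18) on withdrawal and -0.44 in the drift, so the level was lower at week 32 on both diets and within the 1.2-fold limit after withdrawal. Apoe, a carrier of lipids made by macrophages, stood at 1089 and 1184 CPM in P-HC24 and I-HC32 and at 430 and 323 CPM in the low libraries (log2 ratio 0.12).

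Of 12 compared genes of sterol synthesis and uptake, 5 were higher and none lower, with a median of 0.24 that was close to the median gene. In the drift 8 of the 12 were higher, with a median of 0.54, and none differed beyond the drift. Cyp51, the lanosterol demethylase, stood at 31.5 CPM in P-LC24, 58.2 in I-LC32, 32.6 in P-HC24 and 56.9 in I-HC32. Its log2 ratios were 0.80 (0.73 to 0.87) and 0.89, so the week 32 libraries were higher on both diets. Hmgcs1, which makes HMG-CoA, had log2 ratios of 0.44 and 0.29.

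In macrophage-like cells, none of the 9 compared LXR targets was called (median 0.05). Abca1 stood at 228 CPM in P-HC24 and 199 in I-HC32 there (log2 ratio -0.20, -0.28 to -0.13) and at 211 and 150 CPM in the low libraries (-0.49). Apoe was at 5037 and 5455 CPM, against 3711 and 3836. LXR targets were lower in 3 of 7 in monocyte-like cells, beside 16.0% of all genes, and in 2 of 4 in naive B-like cells, beside 6.31%, each with an interval below equal levels. In monocyte-like cells these were Abcg1, a second efflux pump, at 136 and 84.7 CPM (-0.69), Apoe (-0.69) and Lpl (-1.07), while Lpcat3 was past the fold in the other direction with an interval that included equal levels (0.29). In naive B-like cells they were Abca1 (-0.29) and Abcg1 (-0.32), both lower in the drift as well (-0.39 and -0.35).

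Heat shock genes had the highest median of the lists compared over the kept cells. Of 17 compared, 14 were higher and none lower, with a median log2 ratio of 0.67 against 0.19 over all genes, and 12 were higher beyond the drift. Relative to the median gene 12 were higher and none lower. Of the 12 beyond the drift, 10 were at least 1.2-fold higher in I-HC32 than in each other library and 2 at least 1.2-fold lower in P-HC24 than in each other library, Hsph1 being in both counts and Hspa4l in neither. The same counts over the 2016 genes above were 255 and 1345.

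Hsph1, an HSP110 that recharges HSP70 with nucleotide (chromosome 5, 149537636 to 149560156, GRCm39), stood at 50.5 CPM in P-LC24, 38.2 in I-LC32, 28.0 in P-HC24 and 72.1 in I-HC32. The log2 ratio was 1.37 (1.29 to 1.44) against a drift of -0.40. P-HC24 was the lowest and I-HC32 the highest of the 4 libraries. The cytosolic HSP90 genes and the constitutive HSP70 gene Hspa8 supply much of the folding capacity of a resting cell. Hsp90ab1 stood at 1067, 994, 1070 and 1827 CPM in P-LC24, I-LC32, P-HC24 and I-HC32, a log2 ratio of 0.77 (0.76 to 0.79) against -0.10. Hsp90aa1 stood at 303, 313, 289 and 504 CPM in the same order, a log2 ratio of 0.80 (0.78 to 0.83) against 0.05. For both genes the first 3 libraries lay close together and I-HC32 above them.

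Hspa8 stood at 874, 1020, 1091 and 1677 CPM in that order (0.62, 0.61 to 0.63, drift 0.22). Stip1, which couples HSP70 to HSP90, had a log2 ratio of 0.82, and Ahsa1, which activates the HSP90 ATPase, one of 0.64. Dnaja1, an HSP40 co-chaperone, had 0.74 with a drift of 0.29. The neighbours Hspd1 and Hspe1, whose shared promoter is printed above, differed from each other. Hspd1 stood at 92.9 and 152 CPM in P-HC24 and I-HC32 (0.71, 0.67 to 0.76) and Hspe1 at 291 CPM in both (-0.00, -0.03 to 0.03), with drifts of 0.02 and -0.32. Dnajb1, at 34.5 and 47.2 CPM, had a log2 ratio of 0.45 and a drift of 0.50.

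**Figure D4:**
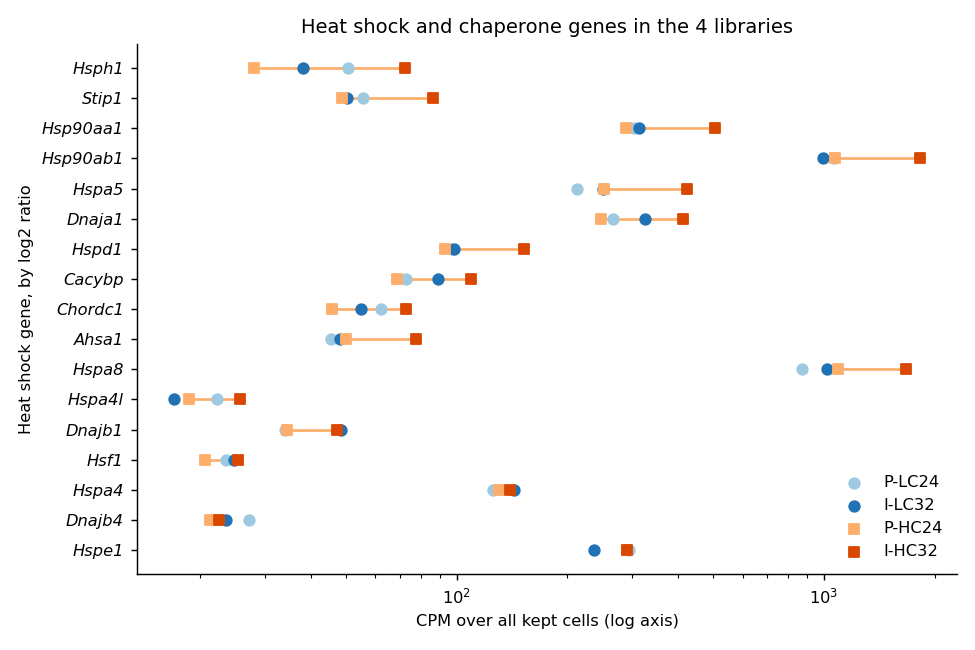
Level of the 17 compared heat shock genes (rows, ordered by log2 ratio) in the kept cells of each library (x axis, CPM on a log scale), with circles for the low libraries, squares for P-HC24 and I-HC32 and a line joining the latter. For Hsp90aa1, Hsp90ab1 and Hspa8 the I-HC32 square lies above the 3 other points, and for Hspe1 the squares coincide at 291 CPM.

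The pattern was present in most cell classes. Hsp90aa1, Hsp90ab1, Hspa8 and Dnaja1 were higher in I-HC32 in 9 of 9 classes with enough UMIs, Stip1 and Ahsa1 in 8 of 8, Hsph1 in 7 of 7 and the endoplasmic chaperone Hspa5 in 8 of 9, while Hspe1 and Hspa4 were higher in 1 of 9. In B-1-like cells 12 of 15 heat shock genes were higher (median 0.78), where 47.7% of all compared genes were. In naive B-like cells it was 11 of 15 (0.62) beside 35.6%, in T cells 12 of 15 (0.47) beside 52.3%, and in macrophage-like cells 16 of 19 (0.45) beside 29.4%. Monocyte-like cells had 9 of 13 beside 29.6%, NK-like cells 8 of 11 beside 34.6%, cluster 7 10 of 15 beside 44.5% and cluster 12 15 of 17 beside 30.1%, of which 7, 5, 9 and 12 had an interval above equal levels. Relative to the median gene the counts higher and lower were 11 and 0 in B-1-like cells, 10 and 0 in naive B-like cells, 14 and 1 in macrophage-like cells, 8 and 0 in both monocyte-like and NK-like cells and 14 and 0 in cluster 12, but 6 and 2 in T cells (median 0.19) and 5 and 2 in cluster 7 (0.15). On the CPM scale the members past the fold in the other direction were Hsf1 in macrophage-like cells, with an interval that included equal levels, and Dnajb4 in cluster 7. In B-1-like cells I-HC32 stood highest by 1.2-fold for 11 of the 12 heat shock genes beyond the drift, beside 292 of 2398 genes of the class, and in macrophage-like cells for 3 of 12, beside 189 of 986. Over the kept cells every list call had an interval that excluded equal levels.

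Genes of the unfolded protein response went the same way over the kept cells, but not in every class. Of 23 compared, 15 were higher and 1 lower (median 0.34, drift 0.06), and relative to the median gene 7 were higher and 1 lower. For 9 of the 10 higher beyond the drift I-HC32 was at least 1.2-fold above every other library. Hspa5, the main chaperone of the endoplasmic reticulum, stood at 213 CPM in P-LC24, 249.8 in I-LC32, 252 in P-HC24 and 422 in I-HC32 (0.75, 0.72 to 0.77, drift 0.23). Hsp90b1, its HSP90 counterpart, had a log2 ratio of 0.59 and a drift of -0.42, and the disulphide isomerase Pdia4 one of 0.58. Xbp1, a transcription factor of the response, stood at 51.7 and 72.7 CPM (0.49), and 44.6 and 43.0 in the low libraries. The member that was lower was Sec61b, a translocon subunit, at 345 and 277 CPM (-0.31). Relative to the median gene the counts higher and lower varied by class. Macrophage-like cells had 7 and 1 of 23, monocyte-like cells 5 and 2 of 20 and cluster 12 had 7 and 3 of 22. In B-1-like cells they were 4 and 2 of 20, beside 14.4% and 15.5% of all genes. In naive B-like cells they were 4 and 1 of 19, beside 13.9% and 16.1%. T cells had 4 and 4 of 21, near the 19.4% and 20.4% of all genes. NK-like cells had 4 and 7 of 14 and cluster 7 had 2 and 5 of 17.

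Immediate early genes are switched on within minutes by growth factors, stress or tissue handling. Of 25 compared over the kept cells, 14 were higher and 2 lower (median 0.37, drift 0.18), 10 and 2 relative to the median gene. The 6 higher beyond the drift each stood highest in I-HC32 by 1.2-fold. Fos stood at 446 and 889 CPM in P-HC24 and I-HC32 and at 469 and 583 in P-LC24 and I-LC32 (log2 ratio 1.00). Egr1 stood at 149 and 291 CPM (0.96) and the phosphatase gene Dusp1 at 308 and 560 (0.86). Nr4a1, an orphan receptor induced by antigen receptor signals, was lower, at 295 and 194 CPM (-0.60), and lower in the drift as well (-0.70). By class and relative to the median gene, 17 were higher and 1 lower of 20 in macrophage-like cells. Monocyte-like cells had 11 and 2 of 15 and cluster 12 had 6 and 3 of 16. NK-like cells had 4 and 1 of 12, but a median of -0.05. The other lymphocyte classes had no more higher than lower members. B-1-like cells had 1 and 3 of 11 (median 0.005) and naive B-like cells 3 and 3 of 10 (0.13). T cells had 2 and 2 of 14 and cluster 7 had 3 and 5 of 11. The part of dissociation and handling in these gene groups was not tested.

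The genes named by rank over the kept cells were the 10 highest and 10 lowest beyond the drift. Xpo1, the exportin that carries proteins and RNA out of the nucleus (chromosome 11, 23205554 to 23248249, GRCm39), stood at 70.3 CPM in P-LC24, 65.0 in I-LC32, 46.1 in P-HC24 and 101 in I-HC32 (1.13, drift -0.11). Wee1, the kinase that restrains entry into mitosis, stood at 9.31, 9.64, 10.1 and 26.0 CPM in that order (1.37, 1.24 to 1.49), so I-HC32 alone stood out. Gm17056, a long non-coding RNA, stood at 4.24 and 17.8 CPM in P-HC24 and I-HC32 (2.07) and at 5.21 and 8.00 in the low libraries. Ahsa2, a relative of the HSP90 activator, stood at 17.8 and 35.3 CPM (0.98), and Mir155hg, the host transcript of miR-155, at 11.2 and 25.1 (1.17).

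Of the other higher genes, Arrdc3, an arrestin that responds to glucose and insulin, stood at 33.5 CPM in P-LC24, 17.8 in I-LC32, 17.2 in P-HC24 and 35.5 in I-HC32 (1.04, drift -0.91), so its order was opposite on the 2 diets. Atp10a, a phospholipid flippase, was at 45.4, 44.6, 19.4 and 39.2 CPM (1.01), with P-HC24 the one low library. Nr6a1, an orphan nuclear receptor, stood at 22.3, 18.9, 13.7 and 27.9 CPM (1.02), with P-HC24 the lowest and I-HC32 the highest library.

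Of the genes lower in I-HC32, Ly6c2 (chromosome 15, 74980003 to 74988467, GRCm39), a surface protein of classical monocytes and memory T cells, ranked first by the smaller of the log2 ratio and its difference from the drift, at 127 CPM in P-LC24, 124 in I-LC32, 78.9 in P-HC24 and 22.6 in I-HC32. Its log2 ratio was -1.80 (-1.88 to -1.73) against a drift of -0.04, and among the classes where it reached the 20% limit it was lower in monocyte-like cells and cluster 7 and within 1.2-fold in NK-like cells. Lars2, the mitochondrial leucyl-tRNA synthetase, stood at 200.1 and 61.2 CPM (-1.71) and at 134 and 78.3 in the low libraries (-0.77), lower on both diets. Ddah1, which degrades methylarginine, stood at 12.5 and 4.40 CPM (-1.51, drift -0.57). The remaining names of rank were Rps27rt (-1.64), Gm2000 (-1.56), Ftl1-ps1 (-1.28), Rpl9-ps6 (-0.93) and Gm57169 (-0.87). These include copies and pseudogenes of ribosomal protein and ferritin genes, whose reads cannot be assigned surely between near-identical copies.

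Transcripts of the translation and respiration machinery took a smaller part of I-HC32. Of 79 cytosolic ribosomal protein genes, 36 were lower and none higher (median -0.22, drift 0.01), and 18 were lower beyond the drift. Rps27 stood at 5859 and 3122 CPM in P-HC24 and I-HC32 (-0.91) but also at 7555 and 4133 in the low libraries (-0.87). Rps19 stood at 5858 and 4535 CPM (-0.37) and at 4434 and 4819 in the low libraries (0.12). On the centred scale 64 of the 79 were lower. On the CPM scale, ribosomal protein genes were lower in 57 of 79 cases in T cells, where 5.66% of all genes were, in 41 in NK-like cells (16.2%) and in 36 in both B-1-like (4.26%) and macrophage-like cells (7.60%).

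Of 75 compared nuclear genes of oxidative phosphorylation, 29 were lower and none higher (median -0.15, drift 0.07), and 20 were lower beyond the drift. Ndufa1, a complex I subunit, stood at 165 and 92.1 CPM (-0.84) and at 126 and 85.6 in the low libraries (-0.56). Cox6c, a subunit of cytochrome oxidase, stood at 400.0 and 262 CPM (-0.61, drift -0.15). In monocyte-like cells 40 of 70 were lower, beside 16.0% of all genes. Of the 13 genes encoded by mitochondria themselves, 7 were lower and none higher (median -0.27), while the drift median was 0.29. mt-Nd3 stood at 970.2 and 455 CPM (-1.09) and mt-Co2 at 7849 and 5862 (-0.42). These 13 genes were also the basis of the limit for keeping a cell, and the median mitochondrial share of kept cells was 5.10% in P-HC24 and 4.12% in I-HC32, against 3.81% and 4.86% in the low libraries.

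Type I interferon-stimulated genes were lower. Of the 22 of 42 that were compared, 10 were lower and none higher (median -0.22), while the drift had 3 higher and 7 lower (median -0.03). Relative to the median gene 15 were lower. Isg15, a ubiquitin-like modifier, stood at 19.3 CPM in P-LC24, 21.6 in I-LC32, 21.7 in P-HC24 and 11.6 in I-HC32 (-0.90, -1.02 to -0.79, drift 0.17). Ifi27l2a stood at 435, 495, 696 and 378 CPM in that order (-0.88, -0.90 to -0.86). For Isg15, I-HC32 was below 3 libraries that lay together, whereas for Ifi27l2a P-HC24 was the high one.

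The difference was wider in monocyte-like cells, where 17 of 24 interferon-stimulated genes were lower and 1 was higher (median -0.43), beside 16.0% lower and 29.6% higher among all 4269 genes compared there. In the drift 9 were higher and 1 lower (median 0.21). For 14 of the 17 lower beyond the drift, I-HC32 was at least 1.2-fold below each other library. Oas3, a sensor that makes the second messenger of RNase L, stood at 45.5 CPM in P-LC24, 53.6 in I-LC32, 55.4 in P-HC24 and 21.7 in I-HC32 (-1.35, -2.08 to -0.69). Isg15 stood at 59.7, 108, 83.3 and 49.2 CPM in that order (-0.76, -1.24 to -0.30, drift 0.85), and Ifi27l2a at 1395, 1849, 2183 and 1081 (-1.01, -1.11 to -0.92). Samd9l was past the fold in the other direction, at 50.1 and 63.0 CPM, with an interval that included equal levels. The class held 92 cells in I-HC32, and 14 of the 17 lower genes had an interval below equal levels. Markers of classical monocytes (6 of 6) and of patrolling monocytes (7 of 7) were detected in it. The part of their mix in these ratios was not tested.

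**Figure D5:**
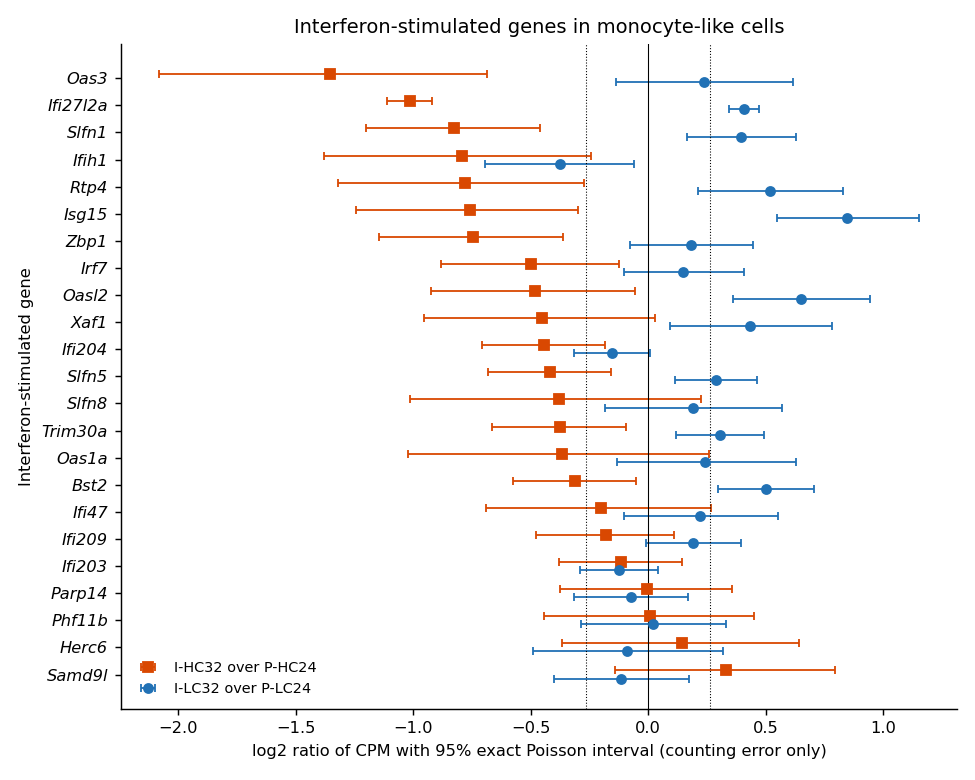
Log2 ratio of CPM (x axis) of compared interferon-stimulated genes (rows) in monocyte-like cells, as squares for I-HC32 over P-HC24 and circles for I-LC32 over P-LC24, with 95% exact Poisson intervals and dotted lines at 1.2-fold. Most squares lie left of 0, Oas3 at -1.35 and Ifi27l2a at -1.01, and the intervals of low genes are wide.

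In macrophage-like cells 9 of 22 interferon-stimulated genes were lower, 8 of them with an interval below equal levels, and none higher (median -0.25), beside 7.60% lower among all 7603 genes compared, while 14 were higher in the drift (median 0.51). Ifi27l2a stood at 1032 and 471 CPM (-1.13). In cluster 12, a myeloid cluster led by Retnla, Fcrls, Cd209a and Mrc1 and left without a name, 10 of 16 were lower, beside 13.1% of all genes, and 9 were lower in the drift. In lymphocytes the counts depended on the scale. On the CPM scale 6 of 18 were higher and 3 lower in T cells, where 52.3% of all genes were higher and 5.66% lower, 1 and 1 of 14 in B-1-like cells (47.7% and 4.26%), and none and 4 of 15 in naive B-like cells (35.6% and 6.31%). Relative to the median gene 2 were higher and 9 lower in T cells (median -0.26), none and 7 in B-1-like cells (-0.25) and none and 6 in naive B-like cells (-0.18), the same direction as the 14 of 22 lower in macrophage-like cells. The difference between these classes was not tested.

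The T cell class (919 cells in P-HC24, 1111 in I-HC32) had 3346 of 6400 genes higher (52.3%) and 362 lower (5.66%), with a median of 0.28 and a drift median of 0.06. Genes tied to T cell exhaustion, the state of persistent antigen exposure, were higher in 6 of 7 and lower in none (median 0.73, drift -0.24), with the same counts relative to the median gene. In all 6 P-HC24 was at least 1.2-fold below every other library, an order shared by 1502 of the 2362 genes higher beyond the drift in T cells, and in 2 of the 6 I-HC32 was also the highest by 1.2-fold. Pdcd1, which encodes the PD-1 checkpoint receptor, stood at 37.6 CPM in P-LC24, 27.0 in I-LC32, 15.8 in P-HC24 and 43.8 in I-HC32 (1.47, 1.18 to 1.77, drift -0.48). Tox, a factor that sustains that state, stood at 664, 517, 239.7 and 396 CPM in that order (0.72, drift -0.36). I-HC32 thus stayed below both low libraries for Tox and above them for Pdcd1.

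Eomes, a factor of memory and effector cells, stood at 24.1 and 54.3 CPM in P-HC24 and I-HC32 (1.17). Ctla4, an inhibitory receptor that is also among the B-1 markers used to name the clusters, stood at 125 and 240.3 (0.94). Gzmk, a granzyme, stood at 57.9 and 94.7 CPM (0.71) and the receptor gene Tigit at 9.32 and 15.4 (0.73). The Gzmk- and Tox-led cluster made up a larger share of the T lineage in I-HC32, and within that cluster alone Pdcd1 stood at 134, 56.8, 56.5 and 118 CPM in P-LC24, I-LC32, P-HC24 and I-HC32, and Tox at 1657, 938, 599 and 859. Inside the cluster P-HC24 was thus the low library for Tox, while for Pdcd1 it lay beside I-LC32. Of 10 exhaustion genes compared inside the cluster, 6 were higher and 1 lower, beside 45.6% and 8.14% of all genes compared there.

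Of 20 T cell receptor signalling genes compared in T cells, 12 were higher and 2 lower (median 0.48), near the 52.3% of all genes higher, and relative to the median gene 9 were higher and 4 lower. Beyond the drift 10 were higher, and P-HC24 stood lowest by 1.2-fold in 9 of those. Cish, which dampens cytokine and receptor signals, stood at 13.8 and 37.4 CPM (1.44). Of 16 genes of quiescence and survival, 5 were higher and 5 lower (drift median -0.56), and relative to the median gene none was higher and 9 were lower (median -0.32). Of the genes lower in T cells, Dapl1 stood at 193 and 76.6 CPM (-1.33) and Igfbp4 at a log2 ratio of -1.13. Cd8a stood at 101 and 43.0 CPM (-1.23) and Ly6c2, which did not reach the 20% limit in T cells, at 109 and 33.5 (-1.70). In the Dapl1-led cluster alone, Cd8a was at 105 CPM in P-LC24, 69.6 in I-LC32, 105 in P-HC24 and 25.1 in I-HC32 (-2.06), and Ly6c2 at 107, 80.9, 92.0 and 10.8 (-3.09).

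B cell RNA differed between the T cells of the libraries, with Cd79a at 385 CPM in P-HC24 and 521 in I-HC32 and at 106 and 358 in the low libraries. The share of T cell UMIs estimated as RNA of other cells was 28.5% and 38.4%, against 12.2% and 25.0%. That estimate is the level of B cell markers in T cells over their level in the kept cells. It also counts doublets and B cells placed in the class, and is not free RNA alone. By marker UMIs, 222 and 255 cells of the class over the 4 libraries were B-1-like and naive B-like. Without cells that carried markers of 2 lineages, the log2 ratios were 1.74 for Pdcd1, 1.04 for Tox, -1.41 for Ly6c2 and -0.97 for Cd8a. Ctla4 was not read in this way, and the part of B cell RNA in its ratio was not tested.

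Cluster 7 held 265 cells in P-HC24 and 145 in I-HC32. Of 4328 genes compared, 44.5% were higher and 9.24% lower. Quiescence and survival genes were higher in 8 of 15 and lower in none (median 0.32, drift -0.33), which is near the share of all genes, and relative to the median gene 5 were higher and 5 lower. The anti-apoptotic gene Bcl2 stood at 1245 and 2203 CPM (0.82) and at 1632 and 1615 in the low libraries. Cytotoxic genes were lower in 5 of 9 and higher in 2 (median -0.28, drift 0.24), and Ifng, the type II interferon, had a log2 ratio of -0.78. Ly6c2 stood at 738 and 483 CPM (-0.61) against 775 and 829.7 in the low libraries. Of the genes named by rank, Tanc2 stood at 36.7 and 91.7 CPM (1.32), Fam169b at 200.2 and 409 (1.03) and Rnaset2a at 88.7 and 33.8 (-1.39).

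NK-like cells, innate killers, numbered 113 in P-HC24 and 72 in I-HC32, and 34.6% of 2346 genes were higher and 16.2% lower. Tox stood at 661 CPM in P-LC24, 546 in I-LC32, 174 in P-HC24 and 924 in I-HC32 (2.41, 2.14 to 2.69). St6galnac3, a sialyltransferase, stood at 508, 481, 104 and 612 in that order (2.55), and Gm36723 at 348, 329, 42.2 and 368 (3.12), so in each case P-HC24 was the low library. T cell exhaustion genes were higher in 4 of 7 and T cell receptor signalling genes in 5 of 9, none lower, while relative to the median gene 1 of the former was lower. Of 11 cytotoxic genes, 5 were lower and 2 higher, with the granzyme Gzma at 6280 and 4066 CPM (-0.63) and Gzmb at 429 and 306 (-0.49). B cell receptor genes were lower in 8 of 14 (median -0.35, drift 0.39), 6 with an interval below equal levels. B cell markers in the class summed to 2224 CPM in P-HC24 and 1266 in I-HC32 against 404 and 905 in the low libraries, and Cd79a stood at 632 and 294 (-1.10), so RNA of B cells moved with these ratios and its part was not tested.

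Macrophage-like cells differed little as a whole, with a median log2 ratio of 0.11 and a drift median of 0.08, and 2238 of 7603 genes higher (29.4%) and 578 lower (7.60%). The drift of this class rests on 37 and 76 cells. Timd4, a receptor for dying cells on resident macrophages, stood at 119 and 189 CPM (0.66) and at 24.7 and 53.4 in the low libraries (1.11). Mertk, a receptor of the same function, stood at 96.4 and 146 CPM (0.60).

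Phagocytosis genes were higher in 8 of 17 and lower in none (median 0.18), and relative to the median gene in 4. Complement genes were higher in 4 of 14 and lipid-associated macrophage genes in 4 of 13 (median 0.18), close to the 29.4% of all genes, and relative to the median gene 2 of the latter were higher and 1 lower. Spp1, osteopontin, stood at 41.1 and 99.7 CPM (1.28) and at 3.41 and 35.7 in the low libraries (3.39). Immediate early genes were higher in 17 of 20 and lower in 1 (median 0.65), but 12 were higher in the drift too (0.39), and Ier2 had a log2 ratio of 1.5 on both. MHC class I genes were lower in 5 of 12 and higher in 1 (median -0.15), against a drift median of 0.51, with the immunoproteasome gene Psmb9 at -0.43. Of the secreted mediators, Il6 stood at 173 and 332 CPM (0.93, drift 1.15) and Il10 at 45.1 and 26.2 (-0.78).

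Of the 6 highest and 6 lowest genes named by rank in macrophage-like cells, Colec12, a scavenger receptor, stood at 10.2 CPM in P-LC24, 11.3 in I-LC32, 8.25 in P-HC24 and 22.5 in I-HC32 (1.45). Hsph1 stood at 72.5, 32.1, 21.3 and 51.1 in that order (1.26), so that P-LC24 and not I-HC32 was the highest. Garin1a stood at 5.64 and 17.3 CPM (1.62) and Iqck at 5.73 and 13.6 (1.25). Of the lower genes, Vegfa, the vascular growth factor, stood at 14.6 and 6.97 CPM (-1.07) and at 2.56 and 7.69 in the low libraries (1.59), opposite in direction. Wdr89 stood at 27.0 and 9.54 (-1.50).

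Monocyte-like cells held lower levels of lipid-associated genes, 6 of 10 lower and 1 higher (median -0.55), where the drift had 6 higher and 3 lower (median 0.37). Trem2, a lipid receptor of that programme, stood at 56.0 CPM in P-LC24, 90.4 in I-LC32, 153 in P-HC24 and 51.2 in I-HC32 (-1.58, -2.03 to -1.15). P-HC24 was the highest of the 4, and I-HC32 lay beside P-LC24. Lpl, lipoprotein lipase, stood at 94.6, 204, 182 and 86.7 CPM (-1.07) and Apoe at 4058 and 2508 in P-HC24 and I-HC32 (-0.69). Plin2, which coats lipid droplets, was higher, at 223 and 354 CPM (0.67). Chil3, a chitinase-like protein of classical monocytes, stood at 541, 868, 1016 and 430.4 CPM (-1.24), and Ly6c2 at 814 and 428 (-0.93). Markers of classical and of patrolling monocytes were both detected in the class, and the part of their mix in these ratios was not tested.

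The 3 compared MHC class II genes were higher in monocyte-like cells, with a median of 0.96 and a drift of 0.69. Cd74, the invariant chain, stood at 1638 CPM in P-LC24, 3369.8 in I-LC32, 2427 in P-HC24 and 5299.7 in I-HC32 (1.13), higher at week 32 on both diets. Immediate early genes were higher in 11 of 15 and lower in 2 (median 0.60, drift 0.50). Of the genes named by rank, Nfkbiz, a regulator of NF-kB targets, stood at 153 and 475 CPM (1.64), Adgrl3 at 49.1 and 144 (1.55) and Atxn1 at 52.0 and 129 (1.31). Erythroid markers in the class summed to 6104 CPM in P-HC24 and 94.5 in I-HC32, and to 13512 and 16557 in the low libraries, and neutrophil markers to 602 and 81.7, so red cell RNA took another part of the total in I-HC32, whose effect on these ratios was not tested.

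In cluster 12 (97 cells in P-HC24, 182 in I-HC32) the 3 chemokine genes compared were lower, and higher in the drift. Ccl24, an eosinophil attractant, stood at 22.8 CPM in P-LC24, 37.0 in I-LC32, 264 in P-HC24 and 113 in I-HC32 (-1.22, -1.43 to -1.02, drift 0.70). Ccl9 stood at 1440 and 842 CPM (-0.77) and Ccl6 at 3337 and 2359 (-0.50). Levels in the low libraries were below those of both high-cholesterol libraries for Ccl24 and Ccl6. Of the inducible HSP70 genes, Hspa1b stood at 10.7 and 39.9 CPM (1.89) and Hspa1a at 6.98 and 35.1 (2.33), the latter with a drift of 2.50.

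B-1-like cells (1811 in P-HC24, 2534 in I-HC32) had 3416 of 7160 genes higher (47.7%) and 305 lower (4.26%), with a median of 0.25. Chaperones led again, with Hsph1 at 43.8 CPM in P-LC24, 32.1 in I-LC32, 23.4 in P-HC24 and 81.9 in I-HC32 (1.81). Arrdc3 stood at 19.5, 14.2, 11.9 and 35.5 CPM in that order (1.58), Xpo1 at 61.8, 64.5, 47.0 and 120.1 (1.35) and Nr6a1 at 24.9, 16.6, 12.6 and 31.6 (1.32). In each case P-HC24 was the lowest and I-HC32 the highest library. The non-coding 4930405A21Rik stood at 1.55 and 7.95 CPM (2.36). B cell receptor signalling genes were higher in 13 of 22 and lower in none (median 0.32), near the share and median of all genes of the class, and relative to the median gene 4 were higher and 2 lower (median 0.07). The kinase Syk stood at 513 and 799 CPM (0.64) and at 769 and 783 in the low libraries, and Malt1, a protease of NF-kB signalling, at 247 and 375 (0.60).

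The heavy chain V genes of B-1-like cells, which bear on natural antibody, were counted from 636 UMIs in P-HC24 and 750 in I-HC32. Ighv11-2, used by antibodies to phosphatidylcholine, took 22.2% and 27.3% of V UMIs in P-HC24 and I-HC32 and 33.2% and 18.3% in P-LC24 and I-LC32. Ighv12-3 took 4.56% and 5.73%, against 0.664% and 2.45%. Ighv8-5 took 0.786% and 0.267%, while it took 29.2% in I-LC32 and 0.885% in P-LC24. The 179 UMIs of Ighv8-5 in I-LC32 came from 160 cells, and those of Ighv11-2 from 112 cells in P-HC24 (141 UMIs) and 163 in I-HC32 (205 UMIs). Clones were not counted.

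Naive B-like cells (2755 in P-HC24, 2355 in I-HC32) had 2049 of 5754 genes higher (35.6%) and 363 lower (6.31%), with a median of 0.18. Xpo1 stood at 87.2 CPM in P-LC24, 79.1 in I-LC32, 59.1 in P-HC24 and 132 in I-HC32 (1.16). Arrdc3 stood at 48.5, 28.9, 29.7 and 64.4 CPM in that order (1.12), and Ptger4, a prostaglandin E receptor, at 34.6, 33.5, 20.2 and 42.3 (1.06). Cdk8, a Mediator kinase, was lower, at 558 and 121 CPM (-2.21), and also at 334 and 155 in the low libraries (-1.10). Bloc1s1 stood at 24.2 and 7.90 CPM (-1.62). MHC class II genes were lower in 4 of 10 and higher in 1 (median -0.23). H2-Ab1 stood at 2674 and 2052 CPM (-0.38) and at 2247 and 2206 in the low libraries, whereas Ciita, the master regulator of these genes, stood at 64.1 and 81.3 (0.34) and at 142 and 87.8.

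Over the kept cells, B cell receptor genes were higher in 10 of 22 (median 0.25) and B lineage and BAFF genes in 5 of 14 (0.17), and the 6 and 4 of them beyond the drift had P-HC24 as the low library by 1.2-fold, as had 1345 of the 2016 genes. Foxp1 stood at 2089 CPM in P-LC24, 2415 in I-LC32, 1401 in P-HC24 and 1949 in I-HC32 (0.48). The activation and cytoskeleton genes split, 7 higher and 5 lower of 18, with S100a4 lower, at 615 and 456 CPM (-0.43), and Crip2 higher, at 33.8 and 70.5 (1.06, drift 0.84). Glycolysis genes were higher in 4 of 14 (median 0.22, drift 0.37), proteasome genes in 5 of 33 (0.05), complement genes in 4 of 11 (0.22), and haem and iron genes in 3 of 10 (0.08). Cytotoxic genes were lower in 3 of 4 (-0.61), beside the smaller shares of NK-like cells and cluster 7. MHC class I genes were higher in 1 of 16 and lower in 2, MHC class II genes 1 and 1 of 11, and cell cycle genes higher in 1 of 9. Lipid-associated macrophage genes were higher in 3 of 11 and lower in 1 (0.18, drift -0.28), phagocytosis genes in 4 and 1 of 12, and T cell quiescence genes in 4 and 5 of 14. The lists of inflammatory cytokines, chemokine ligands, acute phase genes and the Ly6 family had 5 to 7 compared genes, of which at most 2 were called in a direction.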

How the data were processed

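Single-cell RNA was measured in 4 libraries, each pooled from 12 aspirates of 3 mice. The authors deposited unnormalised UMI counts per gene and cell barcode, made with Cell Ranger 9.0.1 on GRCm39 per the submitters' processing notes, which also name Seurat 5.3. The members and gene lists were chosen with earlier results of these data known.

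Cells passing the limits in the report (5142 to 7418 and 41238539 to 86280132 UMIs per library) were normalised with sctransform 0.4.2 (Seurat 5.3.0, R 4.3.3). The mitochondrial percentage was regressed out. The 3000 variable genes were reduced to 30 principal components in R. Harmony, written from its published steps with scikit-learn 1.9.0, integrated the libraries. Cells were clustered by the Leiden method (leidenalg 0.10.2) at resolution 0.4. Clusters were named from fixed marker genes, and clusters 7 and 12 stayed unnamed and outside the denominator of shares. Doublets were kept.

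UMIs were summed per library and class and scaled to CPM. Ratios carry exact conditional Poisson intervals at 95%, shares Clopper-Pearson intervals and differences of shares square-and-add intervals (Python 3.11.15, scipy 1.17.1). Calls were by size alone, at 1.2-fold. The drift needed at least 20 UMIs over the low libraries. Libraries per condition were 1, so no model or p-value was used. The counting steps were tested on simulated counts.

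Named genes were those ranked by the smaller of the log2 ratio and its difference from the drift, among genes beyond the drift with at least 200 UMIs (10 each way over the kept cells, 6 in the 4 largest classes, 3 in others), and the extreme members and most abundant member of each list. Immunoglobulin, T cell receptor, haemoglobin, mitochondrial and sex-linked genes were left out of the ranking. Other list members and genes read inside single clusters were named after their values were seen. Alternatives were mitochondrial limits of 5% and 20%, no integration, resolutions of 0.2 and 0.8, classes by marker UMIs, mixed-lineage cells left out, free RNA subtracted, unscaled UMIs, per-cell CPM, centring on the median gene, another gene filter and a fold of 1.5. Some genes that the rule names are not reported here.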

Additional observations from a re-analysis of the deposited data

Results flagged for a closer look

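Several comparisons had opposite directions past 1.2-fold on withdrawal and in the low-cholesterol libraries, which were other mice, and none of these differences was tested, since each side is 1 library. The median log2 ratio of genes encoded by mitochondria was -0.27 on withdrawal and 0.29 in the drift over the kept cells, -0.27 and 0.34 in naive B-like cells, and -0.31 and 0.42 in NK-like cells. T cell exhaustion genes had medians of 0.41 and -0.48 over the kept cells, where a mitochondrial limit of 5% turned the withdrawal median to -0.085, and T cell quiescence and survival genes 0.32 and -0.33 in cluster 7. Lipid-associated macrophage genes had medians of -0.55 and 0.37 in monocyte-like cells, and B cell receptor signalling genes -0.35 and 0.39 in NK-like cells, a class that held B cell RNA. Of single genes over the kept cells, Hsph1 stood at 1.37 and -0.40 and Arrdc3 at 1.04 and -0.91.

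Barcodes over the mitochondrial limit, which entered no comparison, were 10.4% of those with enough UMIs and genes in I-HC32, against 5.07% in P-HC24, 2.91% in P-LC24 and 3.55% in I-LC32.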

How the results depend on the processing

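No paired analysis was possible because each condition was 1 library, with no replicate numbers to share. The counts of genes moved by over 1.5 times as follows. Over the kept cells, unscaled UMIs gave 6039 higher and 151 lower (3352 and 76 beyond the drift), centring on the median gene 994 and 1015 (501 and 637), a fold of 1.5 409 and 99 (165 and 28), and the looser gene filter 7439 and 2202 (4747 and 892). A mitochondrial limit of 5% gave 786 lower (539 beyond the drift). Unscaled UMIs gave 4350 higher and 109 lower genes in naive B-like cells (3391 and 27 beyond the drift), 187 lower in B-1-like (110) and 1487 higher and 1018 lower in macrophage-like cells, where 396 were lower beyond the drift. Centring gave 800 higher and 927 lower genes in naive B-like cells (443 and 611 beyond the drift), 1033 and 1112 in B-1-like (634 and 766), 1373 and 1124 in macrophage-like (624 and 491) and 1240 and 1304 in T cells (758 and 908). Subtracting free RNA, as estimated from marker genes with doublets left in, gave 378 lower beyond the drift in T cells. The limit of 5% gave 495 lower in B-1-like cells (302 beyond the drift) and 941 higher beyond the drift in naive B-like cells. The limit of 5% also turned the median of T cell exhaustion genes over the kept cells to -0.085, and centring turned that of sterol synthesis and uptake in T cells to -0.013.

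Of the differences in share, the limit of 5% gave -0.54 points for macrophage-like, -0.14 for T, 17.6 for B-1-like, -6.02 for naive B-like, -2.11 for NK-like, -4.02 for monocyte-like and -4.22 for neutrophil-like cells. Classes by marker UMIs gave -6.77 for naive B-like and -1.21 for T cells, and with a limit of 20% -6.76 and -1.55. Resolution 0.2 gave -0.13 for T and -1.06 for monocyte-like cells. By marker UMIs, 929 cells of cluster 7, which the T class leaves out, were T cells over the 4 libraries. The cause of these moves was not tested. Adding clusters 7 and 12 to the denominator, chosen after seeing the data, moved none of these by more than the counting interval. Ratios of named genes and list medians were recomputed over the kept cells and in the 4 largest classes, under unscaled UMIs, per-cell CPM, the limit of 5%, centring, and without mixed-lineage cells. Under these, 340 of 340 ratios kept their direction and stayed past 1.2-fold. The genes had been picked for large ratios in these same data, so this outcome was nearly fixed in advance and says little. Whether each gene stayed beyond the drift was not recomputed. Of list medians, 480 kept theirs, 70 passed the fold, 38 no longer did, and 2 turned. Depth limits the classes under 200 cells.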
